A study of Homo sapiens with 18 samples.

Results

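The gene groups described here are those whose response to the BET inhibitor OTX015 differed between 2 acute myeloid leukaemia cell lines, OCI-AML3 (AML3) and OCI-AML2 (AML2). They were chosen by the interaction, that is, the log2 change of OTX015 over DMSO in AML3 minus the same change in AML2. An interaction below 0 means that OTX015 left the gene lower, relative to its own DMSO libraries, in AML3 than in AML2. The comparison used 12 of the 18 libraries of the series. These were AML3 cells with OTX015, AML3 cells with the vehicle DMSO, AML2 cells with OTX015 and AML2 cells with DMSO, 3 libraries each. The remaining 6 libraries, AML3 and AML2 cells with the BET inhibitor JQ1, have no part in the contrast. They entered the filter on low counts, the scaling and the estimate of the spread, and are set beside the members at the end. The sources used here give no doses or exposure times, nor do they say whether the 3 replicates of a group were separate cultures, so p-values measure the spread between these libraries, which may be technical. The assay was CAGE (cap analysis of gene expression), in which a short tag is read from the 5′ cap of each RNA, so that a count marks where transcription began. Of 14079 genes in the table, 10031 had enough tags to be tested, and 767 of them passed for the interaction (7.65%; edgeR's quasi-likelihood test, Benjamini-Hochberg adjusted p under 0.05, two-sided).

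BET proteins are readers of acetylated histones that carry the elongation machinery to promoters and enhancers, and inhibitors such as OTX015 (birabresib) and JQ1 occupy their bromodomains. In leukaemia cells the class is best known for lowering MYC, the transcription factor that drives growth genes. OCI-AML3 is known to carry the cytoplasmic form of nucleophosmin (mutant NPM1) and OCI-AML2 is not; the labels themselves give no genotype. Both lines are single established lines of myelomonocytic character, so a difference between them is a difference between these lines and not between genotypes.

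The 12 libraries held between 303883 and 2163106 tags in genes. The AML3 OTX015 libraries were the smallest, at 303883 to 800633 tags, against 822070 to 1864643 in AML3 DMSO. The AML2 OTX015 libraries held 452667 to 1215251 tags, against 957036 to 2163106 in AML2 DMSO. Levels are given as CPM, tags per 1000000 tags of the library, after edgeR's trimmed-mean scaling. MALAT1, a nuclear noncoding RNA, took 6.32% to 6.75% of all tags in AML3 OTX015 libraries, against 0.148% to 0.291% in AML3 DMSO, and 2.08% to 3.16% in AML2 OTX015, against 0.102% to 0.205% in AML2 DMSO. Its own interaction was 0.43 (SE 0.65, edgeR adjusted p = 0.756) and did not pass. Of 6 myeloid markers, 5 were in the table, and their summed level was 405 to 547 CPM in AML3 OTX015, 1092 to 1219 in AML3 DMSO, 710 to 1001 in AML2 OTX015 and 715 to 1552 in AML2 DMSO. Of 4 B cell markers 2 were in the table, at 0 in every AML3 library and at most 2.90 CPM in AML2 with OTX015 and 2.71 CPM in AML2 with DMSO. Of 4 megakaryocyte markers 2 were in the table, with a summed level of at most 1.09 CPM in AML3 OTX015, 1.17 in AML3 DMSO, 4.67 in AML2 OTX015 and 8.94 to 21.9 in AML2 DMSO. Of 4 fibroblast and epithelial markers 1 was in the table, at 0 except for up to 5.46 CPM in AML3 OTX015. T cell and erythroid markers were not analysed here. In bulk RNA, fewer cells of a kind and less RNA per cell cannot be told apart, which holds for every change below.

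The interaction was above 0 for 285 genes (2.84%) and below 0 for 482 (4.81%). At an unadjusted p under 0.05 there were 2202 genes (22%). Within the lines, OTX015 changed 5505 genes (54.9%) in AML3, raising 2886 (28.8%) and lowering 2619 (26.1%), and changed 4046 (40.3%) in AML2, raising 2053 (20.5%) and lowering 1993 (19.9%). Of the 767 genes, 757 had an interaction of at least 1 on the log2 scale in either direction. The balance of the signs rested on the scaling. With library totals alone the median interaction of all genes was 0.31, against 0.02 with the scaling used, and 346 genes passed above 0 and 287 below 0. Shifts of the interaction smaller than that 0.31 are therefore not read as changes below. Within each line the effects rested on the scaling too. The median OTX015 effect was 0.51 in AML3 and 0.21 in AML2 with library totals alone, against 0.03 and 0.02 with the scaling used. Counts of rises and falls within a line, and the classes below, therefore hold for the scaling used.

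**Figure D1:**
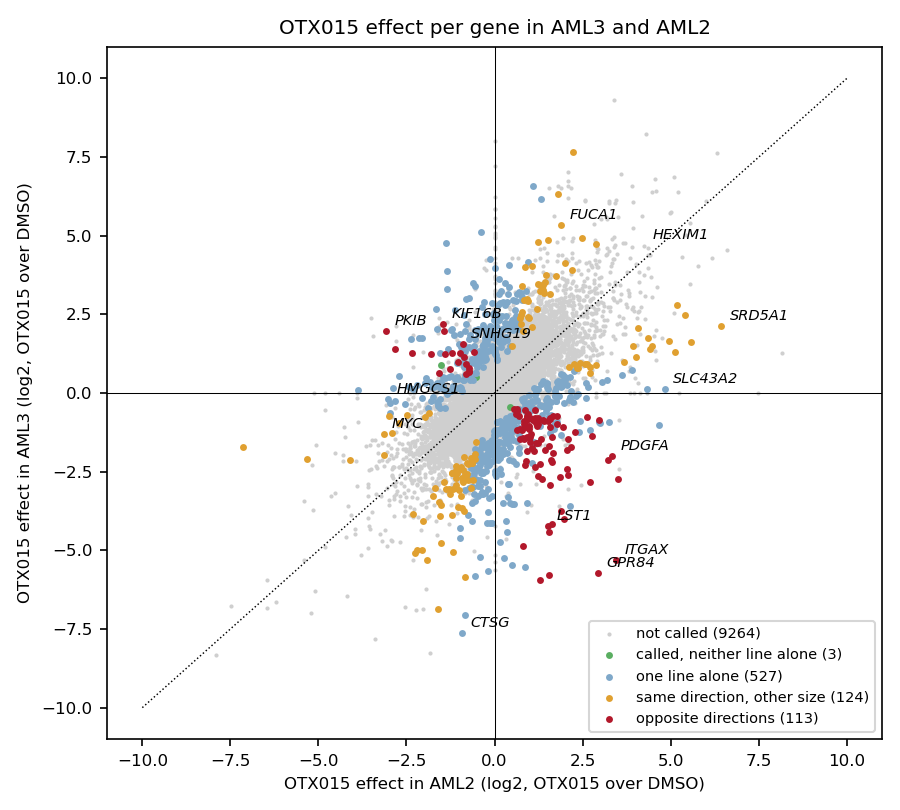
Each point is 1 of the 10031 genes tested, with its OTX015 effect in AML3 (vertical axis, log2 of OTX015 over DMSO) against that in AML2 (horizontal axis), and the dotted line marks equal effects. Red points are the 113 genes that moved in opposite directions, orange those that moved the same way by different amounts, blue those that passed in 1 line alone, green the 3 that passed in neither line; fitted values of genes with a group at 0 tags depend on the fit's prior count.

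Opposite directions were counted apart from differences of size. OTX015 lowered 93 genes in AML3 and raised them in AML2 (0.927% of genes tested), and raised 20 genes in AML3 and lowered them in AML2 (0.199%), each with both lines and the interaction passing (edgeR). With library totals alone these were 50 and 28 genes, and 47 of the 113 were shared. Whether a single gene named below kept this class was not followed, since the checks on single genes cover the interaction alone. Moves of the same direction but different size made up 124 genes. Of these, 35 rose more in AML3 (0.349%), 23 rose more in AML2 (0.229%), 55 fell more in AML3 (0.548%) and 11 fell more in AML2 (0.11%). A further 527 genes passed in 1 line alone. Of those, 157 rose in AML3 alone (1.57%), 110 rose in AML2 alone (1.1%), 200 fell in AML3 alone (1.99%) and 60 fell in AML2 alone (0.598%), and the other 3 genes passed in neither line (0.0299%). As a background, OTX015 and DMSO libraries did not overlap in either line for 3715 of the 10031 genes (37%), and for 201 (2%) the directions were opposite. Of the 93 genes 76 were so separated, and of the 20 genes 15. Both classes were chosen for passing in each line in these same libraries, so that separation is largely built in and lends them no support.

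**Figure D2:**
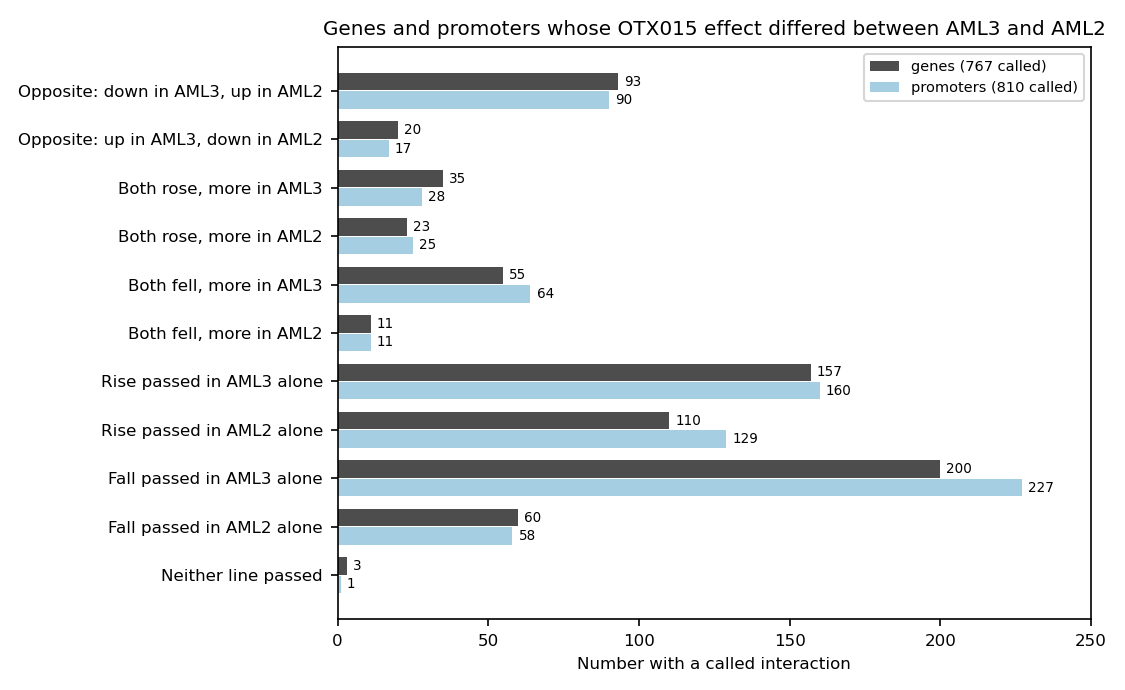
Bars give the number of genes (dark) and promoters (light blue) whose interaction passed, by how each line moved. The longest pair of bars is the fall that passed in AML3 alone, with 200 genes and 227 promoters (1.76% of promoters tested), and 93 genes and 90 promoters stand in the class that fell in AML3 and rose in AML2.

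The 93 genes that fell in AML3 and rose in AML2 had a median OTX015 effect of -1.31 in AML3 and 1.23 in AML2, and a median interaction of -2.57. Their median level was 23.2 CPM in AML3 OTX015, against 51.5 in AML3 DMSO, and 89.7 in AML2 OTX015, against 40.4 in AML2 DMSO. Of the 10 with the largest interactions, among those with at least 10 CPM over the 12 libraries and with libraries apart in both lines, 9 are described next by role. Positions below are those of GENCODE release 29 on GRCh38.

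CYBB and HVCN1 serve the oxidative burst. CYBB (chromosome X, 37780011 to 37813461, + strand) is the catalytic subunit of the phagocyte NADPH oxidase. It had 1.09, 0 and 0 CPM in the AML3 OTX015 libraries, against 9.97, 7.79 and 21.3 CPM in AML3 DMSO, and 37.4, 32.9 and 54.7 CPM in the AML2 OTX015 libraries, against 13.5, 11.9 and 16.6 CPM in AML2 DMSO. The groups did not overlap in either line, and all but 1 of the AML3 OTX015 libraries had no tag. The AML3 level was 26.4-fold (95% counting interval 4.47 to 1066) lower with OTX015 and the AML2 effect was 1.55 (SE 0.33) (edgeR adjusted p of the interaction 4.06e-05). HVCN1 (chromosome 12, 110627841 to 110704950, - strand) is the voltage-gated proton channel that balances the charge moved by that oxidase. It had 0 CPM in the AML3 OTX015 libraries, against 7.04, 7.79 and 5.67 CPM in AML3 DMSO, and 77.1, 72.6 and 75.8 CPM in the AML2 OTX015 libraries, against 27.8, 30.9 and 14.1 CPM in AML2 DMSO. With every AML3 OTX015 library at 0, its level there was at least 5.36-fold lower than with DMSO, taking 3 tags over the group as the floor. The AML2 effect was 1.55 (SE 0.26), and the edgeR adjusted p of the interaction was 9.74e-05.

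Surface receptors came next. GPR84 (chromosome 12, 54362445 to 54364487, - strand) is a G protein-coupled receptor of phagocytes that binds medium-chain fatty acids. It had 1.09, 0 and 0 CPM in the AML3 OTX015 libraries, against 29.9, 36.3 and 21.3 CPM in AML3 DMSO, and 190.3, 219 and 149 CPM in the AML2 OTX015 libraries, against 23.6, 16.8 and 37.1 CPM in AML2 DMSO. The AML3 level was 69.4-fold (95% counting interval 12.2 to 2768) lower with OTX015, the AML2 effect was 2.94 (SE 0.28), and the interaction had an edgeR adjusted p of 7.21e-09. With DMSO the lines overlapped, and with OTX015 every AML2 library was above every AML3 library. ITGAX (chromosome 16, 31355134 to 31382997, + strand) is integrin alpha X, the CD11c chain of a complement receptor. Its levels were 0 CPM in the AML3 OTX015 libraries, against 4.69, 4.33 and 7.09 CPM in AML3 DMSO, and 92.2, 60.9 and 92.6 CPM in the AML2 OTX015 libraries, against 6.74, 8.68 and 5.11 CPM in AML2 DMSO. The AML3 level was at least 3.86-fold lower with OTX015, and the AML2 effect was 3.45 (SE 0.29) (edgeR adjusted p of the interaction 8.81e-06). CD9 (chromosome 12, 6199715 to 6238271, + strand), a tetraspanin of the cell surface, was low in AML3. It had 0, 1.1 and 0 CPM in the AML3 OTX015 libraries, against 3.52, 4.33 and 1.42 CPM in AML3 DMSO, and 37.4, 46.4 and 14.7 CPM in the AML2 OTX015 libraries, against 6.74, 10.3 and 6.39 CPM in AML2 DMSO. The AML3 level was 7.72-fold (95% counting interval 1.14 to 329.8) lower with OTX015, the AML2 effect was 2.07 (SE 0.39), and the edgeR adjusted p of the interaction was 0.00784.

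LST1, CYTIP and SOCS2 are leukocyte signalling genes, and PDGFA is a secreted ligand. LST1 (chromosome 6, 31586124 to 31588909, + strand), leukocyte-specific transcript 1, had the highest levels of those described. It had 5.46, 6.57 and 6.46 CPM in the AML3 OTX015 libraries, against 86.8, 83.1 and 184 CPM in AML3 DMSO, and 1529, 1871 and 2232 CPM in the AML2 OTX015 libraries, against 582.3, 490.3 and 883 CPM in AML2 DMSO. The AML3 effect was -4.22 (SE 0.49) and the AML2 effect 1.53 (SE 0.35), an interaction of -5.75 (SE 0.60, edgeR adjusted p = 7.18e-07). In neither line did OTX015 and DMSO libraries of LST1 overlap. CYTIP (chromosome 2, 157414619 to 157488961, - strand) binds cytohesins, which regulate integrin adhesion. It had 0 CPM in the AML3 OTX015 libraries, against 10.6, 8.65 and 1.42 CPM in AML3 DMSO, and 54.9, 57.1 and 56.8 CPM in the AML2 OTX015 libraries, against 26.1, 16.8 and 28.1 CPM in AML2 DMSO. The AML3 level was at least 6.22-fold lower with OTX015, and the AML2 effect was 1.30 (SE 0.29) (edgeR adjusted p of the interaction 0.000212). SOCS2 (chromosome 12, 93569814 to 93583487, + strand), a feedback inhibitor of cytokine receptors, was near 0 in AML3 throughout. It had 0 CPM in the AML3 OTX015 libraries, against 3.52, 5.19 and 1.42 CPM in AML3 DMSO, and 242, 248 and 198 CPM in the AML2 OTX015 libraries, against 162, 175 and 46.00 CPM in AML2 DMSO. Its AML3 level was at least 2.79-fold lower with OTX015; the edgeR adjusted p of the interaction was 0.0362, and it was lost without any of 7 libraries, at 0.0563 to 0.0931. PDGFA (chromosome 7, 497258 to 520296, - strand), a chain of platelet-derived growth factor, had 4.37, 1.1 and 2.15 CPM in the AML3 OTX015 libraries, against 9.97, 13.8 and 8.51 CPM in AML3 DMSO, and 26.9, 28.1 and 37.9 CPM in the AML2 OTX015 libraries, against 2.53, 3.25 and 2.56 CPM in AML2 DMSO. Its AML3 effect was -2.01 (SE 0.57), its AML2 effect 3.33 (SE 0.43) and its interaction -5.34 (SE 0.70, edgeR adjusted p = 1.38e-05). The AML2 rise of PDGFA was the larger part of that difference.

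The 20 genes that rose in AML3 and fell in AML2 had a median effect of 1.23 in AML3 and -1.13 in AML2, and a median interaction of 2.23. Their median level was 36.1 CPM in AML3 OTX015, against 18.9 in AML3 DMSO, and 15.8 in AML2 OTX015, against 33.9 in AML2 DMSO. The 10 named by the same rule follow. KIF16B (chromosome 20, 16272104 to 16573434, - strand) is a kinesin that moves early endosomes. It had 27.3, 31.8 and 17.2 CPM in the AML3 OTX015 libraries, against 9.38, 3.46 and 1.42 CPM in AML3 DMSO, and 3.5, 4.84 and 6.32 CPM in the AML2 OTX015 libraries, against 16.9, 11.9 and 10.2 CPM in AML2 DMSO. The interaction was 3.66 (SE 0.67, edgeR adjusted p = 0.000675), and OTX015 and DMSO libraries were apart in each line. PKIB (chromosome 6, 122471917 to 122726373, + strand) encodes an inhibitor of protein kinase A. Its levels were 5.46, 4.38 and 4.31 CPM in the AML3 OTX015 libraries, against 1.17, 0 and 2.84 CPM in AML3 DMSO, and 8.17, 3.87 and 2.11 CPM in the AML2 OTX015 libraries, against 62.4, 29.8 and 40.9 CPM in AML2 DMSO, with an interaction of 5.05 (SE 0.98, edgeR adjusted p = 0.000995). PKIB was at or under 5.46 CPM in every AML3 library, and its AML2 effect of -3.09 (SE 0.44) was the larger of both. HDAC9 (chromosome 7, 18086949 to 19002416, + strand), a class IIa histone deacetylase, had 27.3, 35.04 and 17.2 CPM in the AML3 OTX015 libraries, against 12.3, 11.2 and 11.3 CPM in AML3 DMSO, and 5.84, 8.71 and 6.32 CPM in the AML2 OTX015 libraries, against 17.7, 26.04 and 34.5 CPM in AML2 DMSO, an interaction of 3.05 (SE 0.54, edgeR adjusted p = 0.000517).

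SNHG19 (chromosome 16, 2154797 to 2155358, - strand), a noncoding host gene of small nucleolar RNAs, was the best covered of the 10. It had 187, 189 and 243 CPM in the AML3 OTX015 libraries, against 66.3, 75.3 and 66.7 CPM in AML3 DMSO, and 120.3, 107 and 109 CPM in the AML2 OTX015 libraries, against 240.2, 164 and 231 CPM in AML2 DMSO. The interaction was 2.47 (SE 0.33, edgeR adjusted p = 1.97e-05); the lines exchanged their order, since AML3 was above AML2 with OTX015 and below it with DMSO in every library. PDSS2 (chromosome 6, 107152557 to 107459564, - strand) makes the side chain of coenzyme Q. Its levels were 27.3, 32.9 and 30.2 CPM in the AML3 OTX015 libraries, against 13.5, 10.4 and 12.8 CPM in AML3 DMSO, and 7.01, 9.67 and 2.11 CPM in the AML2 OTX015 libraries, against 18.5, 11.9 and 11.5 CPM in AML2 DMSO, with an interaction of 2.26 (SE 0.49, edgeR adjusted p = 0.00366). PDF (chromosome 16, 69328621 to 69330595, - strand), the mitochondrial peptide deformylase, had an AML3 effect of 0.76 (SE 0.29), an AML2 effect of -1.26 (SE 0.31) and an interaction of 2.02 (SE 0.42, edgeR adjusted p = 0.00263). SHTN1 (chromosome 10, 116881482 to 117126586, - strand), shootin 1, a protein of neuronal polarity, had an interaction of 2.65 (SE 0.56, edgeR adjusted p = 0.00263), with 35.9 ± 3.17 CPM in AML3 OTX015, against 16.1 ± 4.51 in AML3 DMSO, and 3.94 ± 1.87 in AML2 OTX015, against 10.8 ± 3.54 in AML2 DMSO (SD, n = 3 each). LANCL1 (chromosome 2, 210431249 to 210477652, - strand), a glutathione-binding protein, had an interaction of 1.73 (SE 0.51, edgeR adjusted p = 0.0308) that was lost without any of 7 libraries, at an adjusted p of 0.0584 to 0.127. The remaining pair is uncertain, since tags may be shared with a related or overlapping gene. HSD17B7P2, a pseudogene of a sterol-synthesis enzyme, had an interaction of 2.47 (SE 0.50, edgeR adjusted p = 0.00175). CZ1P-ASNS, a read-through transcript that overlaps ASNS, had an interaction of 1.89 (SE 0.28, edgeR adjusted p = 7.65e-05), with 133, 137 and 144 CPM in the AML3 OTX015 libraries, against 52.8, 66.6 and 48.2 CPM in AML3 DMSO, and 40.9, 35.8 and 46.3 CPM in the AML2 OTX015 libraries, against 60.7, 67.8 and 52.4 CPM in AML2 DMSO.

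**Figure D3:**
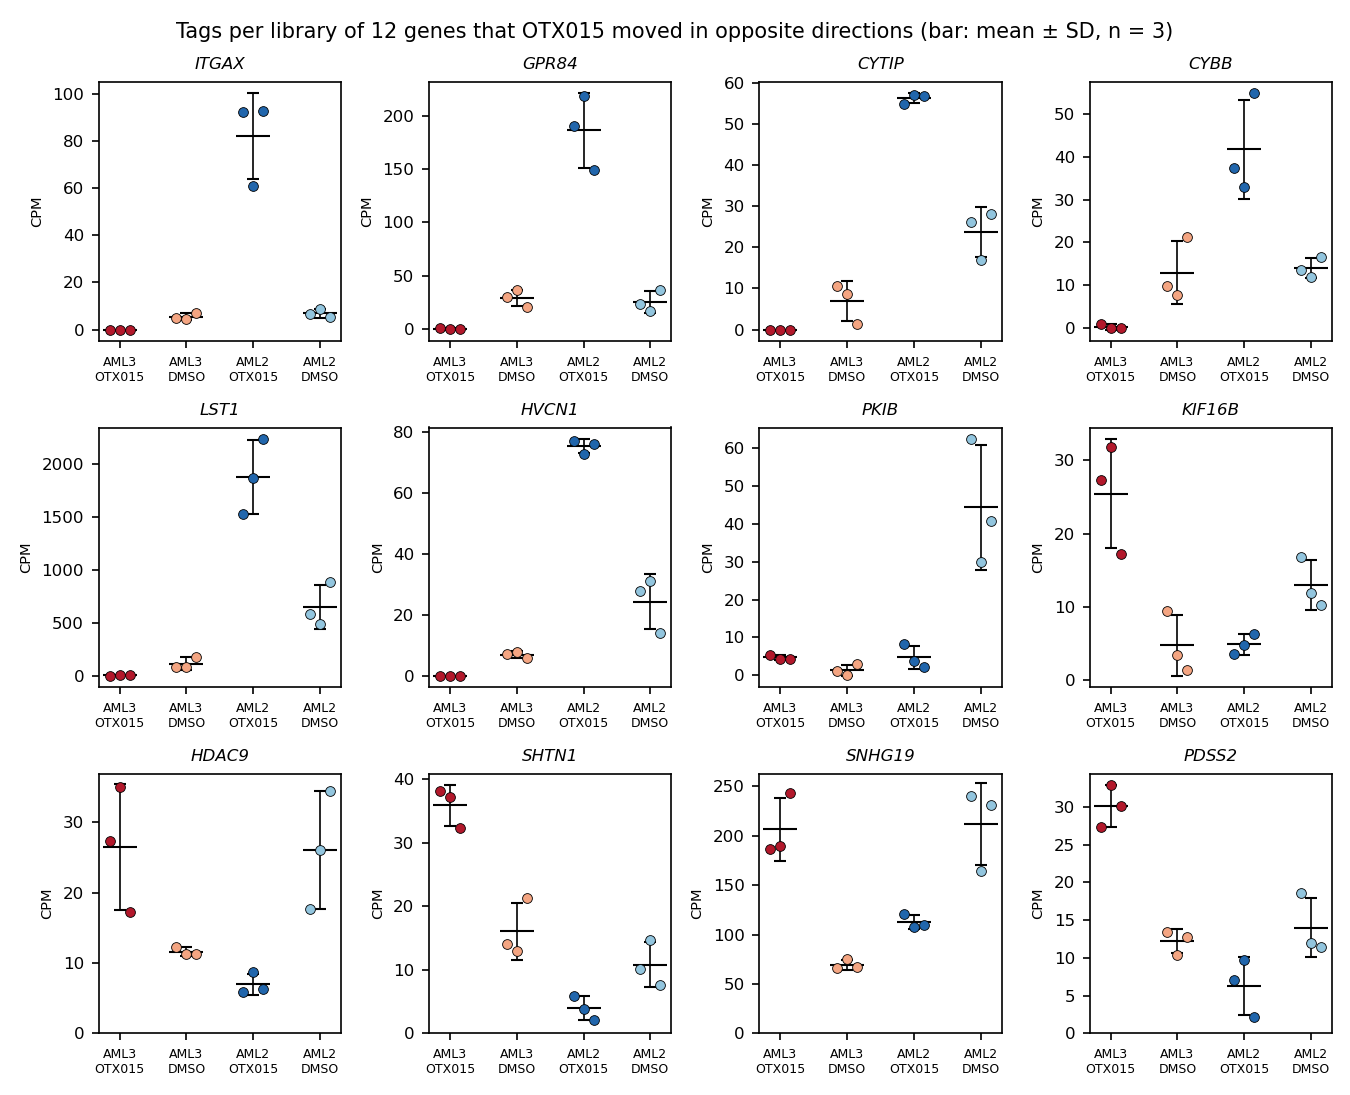
Tags per library (CPM, linear axes) of 12 genes that OTX015 moved in opposite directions, with 1 point per library and the mean ± SD (n = 3) in the order AML3 OTX015, AML3 DMSO, AML2 OTX015, AML2 DMSO. The first 6 genes, ITGAX to HVCN1, are lowest in AML3 OTX015 and highest in AML2 OTX015, and the last 6, PKIB to PDSS2, rise with OTX015 in AML3 and fall in AML2.

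Promoter sequences of RefSeq (GRCh38.p14), from 250 bases before to 50 after each start, were at hand for 92 of the 113 opposite genes. The motif of PU.1, the ETS factor of myeloid genes, was searched as GAGGAA on both strands. It occurred in 39.5% of the 129 promoters of 74 genes that fell in AML3 and rose in AML2. For genes that rose in AML3 and fell in AML2 the share was 32.1% of 28 promoters of 18 genes. Among the 11294 promoters of all genes tested it was 27.6%, and among all 35116 RefSeq promoters 27.9%. The C/EBP letters TTGCNNAA stood in 12.4% of the promoters of the first class, 3.57% of the second and 7.39% of those of all genes tested, and the AP-1 letters TGANTCA in 9.30%, 14.3% and 4.66%. The E-box CACGTG stood in 4.65%, 10.7% and 9.93%, and TATAAA in 6.98%, 3.57% and 5.90%. Promoters of 1 gene overlap, so these shares are descriptions with no test, and a match in a window is not a bound site. The sequences below show 2 genes of the first class whose window holds the PU.1 letters, in capitals on the other strand (TTCCTC), and 3 genes of the second class whose windows hold none. They were taken as the named genes with a single window, up to 3 per class, and not by the motif. They do not stand for their classes, since each class has promoters with and without the letters. In CYTIP (chr2:157444040-157444339, - strand) the match begins 66 bases before the start, and in CYBB (chrX:37779809-37780108, + strand) 48 bases before it. The windows of KIF16B (chr20:16573399-16573698, - strand), SNHG19 (chr16:2155309-2155608, - strand) and PDSS2 (chr6:107459515-107459814, - strand) are printed wholly in lower case.
CYTIP: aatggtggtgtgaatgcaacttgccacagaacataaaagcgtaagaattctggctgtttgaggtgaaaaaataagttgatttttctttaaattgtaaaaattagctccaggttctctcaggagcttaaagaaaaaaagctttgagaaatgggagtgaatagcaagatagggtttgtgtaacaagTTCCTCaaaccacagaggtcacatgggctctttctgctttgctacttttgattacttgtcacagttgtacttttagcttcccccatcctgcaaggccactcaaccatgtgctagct
CYBB: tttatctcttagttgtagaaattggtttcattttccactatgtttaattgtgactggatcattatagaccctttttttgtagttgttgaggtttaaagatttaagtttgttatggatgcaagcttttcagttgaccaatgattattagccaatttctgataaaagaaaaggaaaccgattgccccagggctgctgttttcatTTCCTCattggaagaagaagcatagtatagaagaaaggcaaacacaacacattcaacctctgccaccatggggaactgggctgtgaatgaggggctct
KIF16B: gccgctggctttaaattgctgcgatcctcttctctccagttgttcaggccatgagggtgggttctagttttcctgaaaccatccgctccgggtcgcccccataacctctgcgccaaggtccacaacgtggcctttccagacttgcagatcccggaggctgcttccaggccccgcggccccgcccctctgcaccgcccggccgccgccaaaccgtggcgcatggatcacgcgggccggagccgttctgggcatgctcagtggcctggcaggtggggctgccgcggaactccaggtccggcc
SNHG19: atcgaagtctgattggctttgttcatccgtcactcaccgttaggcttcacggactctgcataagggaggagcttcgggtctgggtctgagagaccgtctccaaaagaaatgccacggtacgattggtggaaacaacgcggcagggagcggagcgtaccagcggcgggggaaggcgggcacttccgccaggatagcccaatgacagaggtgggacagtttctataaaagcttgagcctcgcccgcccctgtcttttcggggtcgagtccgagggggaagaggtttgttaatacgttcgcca
PDSS2: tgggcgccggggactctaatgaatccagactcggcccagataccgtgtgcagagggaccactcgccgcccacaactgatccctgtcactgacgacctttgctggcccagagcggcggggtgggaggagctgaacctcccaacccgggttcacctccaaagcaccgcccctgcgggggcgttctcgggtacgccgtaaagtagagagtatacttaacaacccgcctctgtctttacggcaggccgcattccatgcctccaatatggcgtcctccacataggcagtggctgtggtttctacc

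Where both lines moved the same way, the larger rises in AML2 were led by SRD5A1, KLF2, IL10RA, LFNG and NFKBIA. SRD5A1, a steroid 5-alpha-reductase, had 61.2, 51.5 and 55.99 CPM in the AML3 OTX015 libraries, against 8.21, 18.2 and 12.8 CPM in AML3 DMSO, and 315, 343 and 571 CPM in the AML2 OTX015 libraries, against 4.21, 6.51 and 1.28 CPM in AML2 DMSO. Its effect was 2.14 (SE 0.37) in AML3 and 6.43 (SE 0.40) in AML2, an interaction of -4.29 (SE 0.57, edgeR adjusted p = 1.74e-05). KLF2, a transcription factor that restrains inflammatory genes, had 53.5, 68.99 and 121 CPM in the AML3 OTX015 libraries, against 22.3, 27.7 and 25.5 CPM in AML3 DMSO, and 86.4, 77.4 and 82.1 CPM in the AML2 OTX015 libraries, against 1.69, 1.08 and 2.56 CPM in AML2 DMSO, an interaction of -3.95 (SE 0.65, edgeR adjusted p = 0.000168). With OTX015 the KLF2 levels of the lines were close, and the difference stood in the DMSO libraries, where AML2 was near 0. NFKBIA, the inhibitor that holds NF-kB in the cytoplasm, had 70.99, 64.6 and 66.8 CPM in the AML3 OTX015 libraries, against 25.8, 20.8 and 31.2 CPM in AML3 DMSO, and 503, 378 and 408 CPM in the AML2 OTX015 libraries, against 11.8, 22.2 and 26.8 CPM in AML2 DMSO. Its interaction was -3.02 (SE 0.42, edgeR adjusted p = 2.86e-05). IL10RA, the ligand-binding chain of the interleukin-10 receptor, had an interaction of -3.80 (SE 0.85, edgeR adjusted p = 0.00358), and LFNG, a glycosyltransferase that modifies Notch, one of -3.31 (SE 0.69, edgeR adjusted p = 0.00249).

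Larger rises in AML3 were led by EPS8, FUCA1, FGFR1, the noncoding RNA AC015912.3 and BPGM. EPS8, an adaptor that caps actin filaments, had 51.3, 52.6 and 49.5 CPM in the AML3 OTX015 libraries, against 1.17, 1.73 and 2.84 CPM in AML3 DMSO, and 9.34, 17.4 and 12.6 CPM in the AML2 OTX015 libraries, against 8.43, 2.71 and 7.67 CPM in AML2 DMSO, an interaction of 3.59 (SE 0.69, edgeR adjusted p = 0.000994). FUCA1, the lysosomal fucosidase, averaged 117 ± 52.9 CPM in AML3 OTX015, against 3.44 ± 2.25 in AML3 DMSO, and 84.8 ± 13.7 in AML2 OTX015, against 22.5 ± 1.99 in AML2 DMSO (SD, n = 3 each). Its interaction was 3.44 (SE 0.65, edgeR adjusted p = 0.000806). BPGM, which makes 2,3-bisphosphoglycerate, had an interaction of 2.96 (SE 0.58, edgeR adjusted p = 0.00134), and AC015912.3 one of 3.16 (SE 0.56, edgeR adjusted p = 0.0005). FGFR1, a growth factor receptor, had 1 tag over the AML3 DMSO libraries, so that its AML3 level was 41.99-fold (95% counting interval 6.92 to 1719) higher with OTX015; its edgeR adjusted p of the interaction was 0.021, and 0.143 without AML3 DMSO replicate 1 and 0.0532 without AML3 DMSO replicate 3.

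Larger falls in AML3 were led by the metallothioneins MT1F and MT1E, which bind zinc and copper, and by CDA, SELPLG and MNDA. MT1F had 3.28, 2.19 and 0 CPM in the AML3 OTX015 libraries, against 121, 161 and 116 CPM in AML3 DMSO, and 10.5, 18.4 and 21.1 CPM in the AML2 OTX015 libraries, against 34.5, 25.5 and 28.1 CPM in AML2 DMSO, an interaction of -5.01 (SE 0.59, edgeR adjusted p = 3.5e-06). MT1E had an interaction of -3.37 (SE 0.63, edgeR adjusted p = 0.000962). The metallothionein genes are near-identical copies, so tags may be split between them. SELPLG, the ligand of P-selectin, was 31.8-fold (95% counting interval 8.58 to 266) lower with OTX015 in AML3, against an effect of -1.51 (SE 0.32) in AML2 (edgeR adjusted p of the interaction 0.00755). CDA, cytidine deaminase, was 43.7-fold (95% counting interval 7.59 to 1752) lower in AML3, with an edgeR adjusted p of the interaction of 0.0208 that was 0.0514 to 0.0893 without any of 3 libraries (AML3 OTX015 replicate 1, AML3 DMSO replicate 1, AML2 OTX015 replicate 3). MNDA, a nuclear protein of myeloid cells, had an interaction of -2.94 (SE 0.87, edgeR adjusted p = 0.0347) that was lost without any of 8 libraries, at 0.0526 to 0.193.

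The 11 genes that fell more in AML2 included MYC. MYC had 68.8, 99.7 and 60.3 CPM in the AML3 OTX015 libraries, against 182, 209 and 183 CPM in AML3 DMSO, and 50.2, 41.6 and 58.95 CPM in the AML2 OTX015 libraries, against 406, 447 and 464 CPM in AML2 DMSO. Its effect was -1.31 (SE 0.23) in AML3 and -3.15 (SE 0.25) in AML2, an interaction of 1.84 (SE 0.34, edgeR adjusted p = 0.000737). With DMSO every AML2 library was above every AML3 library, and with OTX015 every AML3 library was above every AML2 library. WDR4, a subunit of a tRNA methyltransferase, had 21.8, 25.2 and 28.00 CPM in the AML3 OTX015 libraries, against 41.6, 40.7 and 36.9 CPM in AML3 DMSO, and 8.17, 8.71 and 18.9 CPM in the AML2 OTX015 libraries, against 63.2, 55.3 and 66.4 CPM in AML2 DMSO, an interaction of 1.79 (SE 0.44, edgeR adjusted p = 0.0092). YBX3, a cold-shock RNA-binding protein, had one of 2.28 (SE 0.42, edgeR adjusted p = 0.000772), and its processed copy YBX3P1, which fell in AML2 alone, one of 2.61 (SE 0.48, edgeR adjusted p = 0.000775); tags of this pair may be shared. PLPPR3, a membrane protein related to lipid phosphatases, had an interaction of 3.25 (SE 0.96, edgeR adjusted p = 0.0281) that was lost without any of 5 libraries, at 0.0621 to 0.159, and TRIP6, a focal-adhesion LIM protein, one of 1.97 (SE 0.61, edgeR adjusted p = 0.0386), lost without any of 11, at 0.0534 to 0.162.

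Falls that passed in AML3 alone were the largest class, with 200 genes, a median effect of -1.96 in AML3 and 0.00 in AML2, and a median interaction of -1.86. CTSG, the granule protease cathepsin G, led it. It had 21.8, 17.5 and 4.31 CPM in the AML3 OTX015 libraries, against 2554, 2718 and 4190.4 CPM in AML3 DMSO, and 671, 867 and 709.5 CPM in the AML2 OTX015 libraries, against 1652, 1699 and 907 CPM in AML2 DMSO. The effect was -7.63 (SE 0.54) in AML3; in AML2 it was -0.92 (SE 0.39) with an adjusted p of 0.059, and the interaction was -6.71 (SE 0.63, edgeR adjusted p = 1.12e-07). AFF3, a nuclear protein related to elongation factors, had 0, 1.1 and 2.15 CPM in the AML3 OTX015 libraries, against 50.4, 38.1 and 42.5 CPM in AML3 DMSO, and 128, 109 and 149 CPM in the AML2 OTX015 libraries, against 85.95, 106 and 79.2 CPM in AML2 DMSO. Its AML3 level was 51.4-fold (95% counting interval 14.01 to 428) lower with OTX015 (edgeR adjusted p of the interaction 1.12e-07). LY86, a partner of a toll-like receptor relative, LILRB1, an inhibitory receptor of leukocytes, and KCNN4, a potassium channel, had no tag in any AML3 OTX015 library. Their AML3 levels were at least 12.6-fold, 4.5-fold and 4.93-fold lower than with DMSO, with edgeR adjusted p of the interaction of 0.00661, 0.0016 and 0.0228. KCNN4 lost its call without AML3 OTX015 replicate 1 or 2 or AML3 DMSO replicate 2, at 0.0578 to 0.0724.

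Rises that passed in AML2 alone numbered 110, with a median effect of -0.24 in AML3 and 1.6 in AML2. S100A9, with S100A8 the calprotectin of monocytes and neutrophils, had 30.6, 24.1 and 92.6 CPM in the AML3 OTX015 libraries, against 59.2, 51.05 and 160.2 CPM in AML3 DMSO, and 3719.8, 3864 and 6544 CPM in the AML2 OTX015 libraries, against 292, 218 and 969.8 CPM in AML2 DMSO. Its interaction was -4.19 (SE 0.80, edgeR adjusted p = 0.0011). S100A8 had 12.01, 10.95 and 73.2 CPM in the AML3 OTX015 libraries, against 31.7, 33.7 and 106 CPM in AML3 DMSO, and 1304, 1949 and 1868 CPM in the AML2 OTX015 libraries, against 198, 135 and 310.5 CPM in AML2 DMSO, an interaction of -3.96 (SE 0.76, edgeR adjusted p = 0.00111). Replicate 3 was the highest of its group for S100A9 in all 4 groups. CD82, a tetraspanin that restrains migration, had 1.09, 0 and 4.31 CPM in the AML3 OTX015 libraries, against 2.93, 2.6 and 2.84 CPM in AML3 DMSO, and 85.2, 87.1 and 109 CPM in the AML2 OTX015 libraries, against 4.21, 1.63 and 6.39 CPM in AML2 DMSO (edgeR adjusted p of the interaction 0.000212). SLC43A2, an amino acid transporter, had 9.83, 8.76 and 6.46 CPM in the AML3 OTX015 libraries, against 7.04, 7.79 and 9.93 CPM in AML3 DMSO, and 64.2, 60.9 and 67.4 CPM in the AML2 OTX015 libraries, against 0.843, 1.63 and 5.11 CPM in AML2 DMSO, an interaction of -4.70 (SE 0.63, edgeR adjusted p = 1.57e-05). ICAM1, the ligand of leukocyte integrins, was also moved in AML2 alone, with an interaction of -4.20 (SE 0.88, edgeR adjusted p = 0.00216).

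Rises that passed in AML3 alone numbered 157, with a median effect of 1.90 in AML3 and -0.13 in AML2. FSCN1, the actin-bundling fascin, had 13.1, 10.95 and 21.5 CPM in the AML3 OTX015 libraries, against 0.586, 0 and 0 CPM in AML3 DMSO, and 29.2, 38.7 and 48.4 CPM in the AML2 OTX015 libraries, against 51.4, 40.7 and 57.5 CPM in AML2 DMSO. The AML3 level was 49.8-fold (95% counting interval 8.31 to 2026) higher with OTX015 (edgeR adjusted p of the interaction 0.000183). RNF144A, a ubiquitin ligase, had 33.9, 40.5 and 68.9 CPM in the AML3 OTX015 libraries, against 2.35, 1.73 and 2.84 CPM in AML3 DMSO, and 19.8, 14.5 and 4.21 CPM in the AML2 OTX015 libraries, against 20.2, 11.9 and 15.3 CPM in AML2 DMSO, an interaction of 4.40 (SE 0.68, edgeR adjusted p = 9.92e-05). CD109, a surface protein with a lipid anchor, had an interaction of 3.97 (SE 0.93, edgeR adjusted p = 0.00607). FMNL2, a formin, had 91.7, 65.7 and 58.1 CPM in the AML3 OTX015 libraries, against 8.8, 2.6 and 0 CPM in AML3 DMSO, and 0, 1.93 and 0 CPM in the AML2 OTX015 libraries, against 0.843, 3.25 and 2.56 CPM in AML2 DMSO; the adjusted p of its interaction was 0.00833 (edgeR), and 0.137 without AML2 DMSO replicate 2. SOBP, a zinc-finger protein, had one of 3.47 (SE 1.02, edgeR adjusted p = 0.0336), lost without any of 6 libraries at 0.0508 to 0.225.

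Falls that passed in AML2 alone numbered 60, with a median effect of 0.18 in AML3 and -1.47 in AML2. HMGCS1, which opens the mevalonate route to cholesterol, had 64.4, 77.8 and 40.9 CPM in the AML3 OTX015 libraries, against 87.95, 78.7 and 42.5 CPM in AML3 DMSO, and 10.5, 13.5 and 16.8 CPM in the AML2 OTX015 libraries, against 132, 86.8 and 107 CPM in AML2 DMSO. Its interaction was 2.83 (SE 0.42, edgeR adjusted p = 7.03e-05), and the AML3 libraries with and without OTX015 overlapped. LGR4, a receptor of R-spondins, had 20.8, 23.00 and 17.2 CPM in the AML3 OTX015 libraries, against 29.9, 27.7 and 17.02 CPM in AML3 DMSO, and 2.34, 3.87 and 8.42 CPM in the AML2 OTX015 libraries, against 33.7, 30.9 and 40.9 CPM in AML2 DMSO, an interaction of 2.66 (SE 0.53, edgeR adjusted p = 0.00137). SLC37A4, the glucose 6-phosphate transporter, had an interaction of 3.04 (SE 0.74, edgeR adjusted p = 0.00808), and FKBP7, a chaperone of the endoplasmic reticulum, one of 2.60 (SE 0.80, edgeR adjusted p = 0.0401) that was lost without any of 8 libraries, at 0.0562 to 0.169.

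The gene lists were read against the shares over all genes, 2.84% with the interaction above 0 and 4.81% below 0, and against the median of 0.02. Lists of myeloid identity and of the cell cycle held many genes below 0 and few above. Of 24 monocyte and macrophage genes tested, 14 (58.3%) passed below 0 and 0 above, with a median interaction of -2.75. Of the 24, 10 had fewer than 3 tags in at least 1 of the 4 groups, against 588 of all 10031 genes. With those groups set at a floor of 3 tags the median stayed at -2.75. OTX015 lowered 18 of them and raised 1 in AML3, and lowered 7 and raised 8 in AML2. TYROBP, the adaptor of activating myeloid receptors, had 16.4, 18.6 and 10.8 CPM in the AML3 OTX015 libraries, against 154, 155 and 245 CPM in AML3 DMSO, and 621, 669 and 575 CPM in the AML2 OTX015 libraries, against 460.1, 423 and 436 CPM in AML2 DMSO, an interaction of -4.03 (SE 0.43, edgeR adjusted p = 7.18e-07). FCGR2A, a receptor for immunoglobulin G, had an interaction of -4.08 (SE 0.56, edgeR adjusted p = 2.57e-05). The members that moved in opposite directions were CD68, CD86, ITGAX, LST1 and PLAUR. The count was 12 to 14 without any 1 library.

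Integrin and adhesion genes passed below 0 for 13 of 28 (46.4%) and above for 0, with a median of -1.16. LGALS1, galectin 1, had 242, 262 and 472 CPM in the AML3 OTX015 libraries, against 467, 753 and 1452 CPM in AML3 DMSO, and 1688, 3034 and 2444 CPM in the AML2 OTX015 libraries, against 574, 593 and 526 CPM in AML2 DMSO, an interaction of -3.54 (SE 0.57, edgeR adjusted p = 0.000177). FERMT3, kindlin 3, which activates leukocyte integrins, had an interaction of -2.29 (SE 0.36, edgeR adjusted p = 0.000115). Of growth factor and cytokine receptor genes 10 of 29 (34.5%) passed below 0 and 0 above, with a median of -0.63, or -0.68 with groups of fewer than 3 tags set at that floor. OTX015 raised 16 of them in AML2 and 7 in AML3. CXCR4, FLT3, IFNGR2, IL10RB, IL4R, IL6R and TNFRSF1A, 7 of the 10, moved in opposite directions. FLT3, a receptor tyrosine kinase of myeloid progenitors, had 18.6, 26.3 and 30.2 CPM in the AML3 OTX015 libraries, against 35.2, 33.7 and 55.3 CPM in AML3 DMSO, and 319, 316 and 263 CPM in the AML2 OTX015 libraries, against 103, 105 and 75.4 CPM in AML2 DMSO, an interaction of -2.38 (SE 0.37, edgeR adjusted p = 0.000111). CXCR4, the chemokine receptor that retains cells in marrow, had 97.2, 81.04 and 81.8 CPM in the AML3 OTX015 libraries, against 220.5, 183 and 186 CPM in AML3 DMSO, and 119, 109 and 139 CPM in the AML2 OTX015 libraries, against 78.4, 80.3 and 74.1 CPM in AML2 DMSO, an interaction of -1.82 (SE 0.31, edgeR adjusted p = 0.000408). IL4R had one of -3.56 (SE 0.57, edgeR adjusted p = 0.000134) and TNFRSF1A one of -1.85 (SE 0.31, edgeR adjusted p = 0.000243).

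Myeloid transcription factor genes passed below 0 for 9 of 35 (25.7%) and above for 1, MYC, with a median of -0.76. OTX015 raised 19 of them and lowered 10 in AML3, and raised 20 and lowered 4 in AML2. The median effect of the list was 0.92 in AML3 and 1.23 in AML2. IKZF1, which encodes Ikaros, had 14.2, 19.7 and 21.5 CPM in the AML3 OTX015 libraries, against 79.2, 80.5 and 75.2 CPM in AML3 DMSO, and 140.1, 134 and 175 CPM in the AML2 OTX015 libraries, against 108, 107 and 120.1 CPM in AML2 DMSO, an interaction of -2.53 (SE 0.32, edgeR adjusted p = 1.18e-05). GFI1, a transcriptional repressor, moved in opposite directions, with an effect of -0.94 (SE 0.22) in AML3 and 1.17 (SE 0.20) in AML2 and an interaction of -2.11 (SE 0.30, edgeR adjusted p = 3.94e-05). Of NF-kB genes 7 of 27 (25.9%) passed below 0 and 0 above, with a median of -1.21; OTX015 raised 20 of them and lowered 0 in AML2, and raised 13 and lowered 6 in AML3. TNFAIP3, which ends NF-kB signalling, had 4.37, 6.57 and 2.15 CPM in the AML3 OTX015 libraries, against 9.38, 9.52 and 12.8 CPM in AML3 DMSO, and 117, 99.6 and 98.96 CPM in the AML2 OTX015 libraries, against 29.5, 28.2 and 23.00 CPM in AML2 DMSO, an interaction of -3.02 (SE 0.45, edgeR adjusted p = 6.97e-05). IL1B, the inflammatory cytokine interleukin 1 beta, had an interaction of -4.13 (SE 0.74, edgeR adjusted p = 0.000551), and NFKBIE, a relative of NFKBIA, one of -2.69 (SE 0.42, edgeR adjusted p = 0.000115). Primary granule genes passed below 0 for 2 of 13 (15.4%), CTSG and SRGN, and above for 1, CTSC, with a median of -1.10. SRGN, the proteoglycan core of granules, had an interaction of -2.73 (SE 0.50, edgeR adjusted p = 0.000757). CTSC, the protease that activates granule proteases, had 830.1, 903 and 444 CPM in the AML3 OTX015 libraries, against 196, 190.3 and 166 CPM in AML3 DMSO, and 216, 282 and 206 CPM in the AML2 OTX015 libraries, against 246, 219.7 and 310.5 CPM in AML2 DMSO, an interaction of 2.11 (SE 0.48, edgeR adjusted p = 0.00534).

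DNA replication genes passed below 0 for 16 of 41 (39.0%) and above for 0, with a median of -1.14, or -1.07 with genes at the floor. OTX015 lowered 36 of the 41 in AML3 and 28 in AML2. Of the 16 that passed, 11 fell in both lines and further in AML3, 4 fell in AML3 alone and 1, RRM2, moved in opposite directions. MCM5, a subunit of the replicative helicase, had 13.1, 12.05 and 12.9 CPM in the AML3 OTX015 libraries, against 123, 96.04 and 155 CPM in AML3 DMSO, and 70.1, 46.4 and 44.2 CPM in the AML2 OTX015 libraries, against 119, 91.7 and 107 CPM in AML2 DMSO, an interaction of -2.31 (SE 0.36, edgeR adjusted p = 0.000118). FEN1, the flap nuclease of lagging-strand synthesis, had an interaction of -2.79 (SE 0.46, edgeR adjusted p = 0.0002), MCM6 one of -1.90 (SE 0.33, edgeR adjusted p = 0.000426) and MCM2 one of -2.34 (SE 0.41, edgeR adjusted p = 0.000474). RRM2 encodes a subunit of ribonucleotide reductase. Mitosis genes passed below 0 for 13 of 43 (30.2%) and above for 0, with a median of -1.10. OTX015 lowered 41 of them in AML3 and 25 in AML2. UBE2C, the ubiquitin-conjugating enzyme of the anaphase-promoting complex, had 44.8, 44.9 and 34.5 CPM in the AML3 OTX015 libraries, against 307, 468 and 404 CPM in AML3 DMSO, and 167, 193 and 90.5 CPM in the AML2 OTX015 libraries, against 453, 349 and 298 CPM in AML2 DMSO, an interaction of -1.95 (SE 0.39, edgeR adjusted p = 0.00172). CENPA, the centromeric histone, had one of -2.08 (SE 0.41, edgeR adjusted p = 0.00135), PRC1 one of -1.57 (SE 0.33, edgeR adjusted p = 0.00304) and BIRC5, which encodes survivin, one of -1.54 (SE 0.36, edgeR adjusted p = 0.00691). The mitosis count was 4 with library totals alone, 25 with replicates 1 and 2 alone, 8 without AML3 OTX015 replicate 1, 5 without AML3 OTX015 replicate 2, 8 without AML3 DMSO replicate 3 and 7 without AML2 OTX015 replicate 1.

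Replication-dependent histone genes passed below 0 for 15 of 60 (25%) and above for 0, with a median of -1.51, or -1.56 with genes at the floor. OTX015 lowered 53 of them in AML3 and 7 in AML2. HIST1H2AK had 292, 278 and 213 CPM in the AML3 OTX015 libraries, against 1162, 1099.7 and 1920.1 CPM in AML3 DMSO, and 1999, 1993 and 564 CPM in the AML2 OTX015 libraries, against 1306, 1408 and 1379 CPM in AML2 DMSO, an interaction of -2.57 (SE 0.56, edgeR adjusted p = 0.00422). AML2 OTX015 replicate 3 was well below the other libraries of its group. HIST1H2BL had an interaction of -2.49 (SE 0.56, edgeR adjusted p = 0.00549), HIST1H4A one of -2.15 (SE 0.49, edgeR adjusted p = 0.00574) and HIST2H2AB one of -1.92 (SE 0.46, edgeR adjusted p = 0.00808). Histone genes are near-identical copies, so the counting may split tags among them. The histone count was 29 without AML2 OTX015 replicate 3, 6 without AML3 DMSO replicate 3, 8 without AML2 OTX015 replicate 1 or 2 or AML2 DMSO replicate 1, and 9 without AML2 DMSO replicate 2. Metallothionein genes passed below 0 for 4 of 7 (57.1%), with a median of -4.42. MT2A had 81.9, 82.1 and 45.2 CPM in the AML3 OTX015 libraries, against 1325, 983 and 123 CPM in AML3 DMSO, and 153, 214 and 629.5 CPM in the AML2 OTX015 libraries, against 259.5, 124 and 137 CPM in AML2 DMSO, an interaction of -4.42 (SE 0.83, edgeR adjusted p = 0.000994), and AML3 DMSO replicate 3 was far below the other libraries of its group. MT1X had one of -2.37 (SE 0.66, edgeR adjusted p = 0.0244), lost without any of 4 libraries at 0.0658 to 0.0695.

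Metabolic lists were mixed. Of 23 glycolysis genes 6 (26.1%) passed below 0 and 1 above, with a median of -0.34, and the count below 0 was 2 to 5 without any 1 library and 2 with library totals alone. PGAM1, phosphoglycerate mutase, had 39.3, 35.04 and 21.5 CPM in the AML3 OTX015 libraries, against 335, 387 and 355 CPM in AML3 DMSO, and 127, 156 and 141 CPM in the AML2 OTX015 libraries, against 176, 181 and 273 CPM in AML2 DMSO, an interaction of -2.87 (SE 0.35, edgeR adjusted p = 8.81e-06). PDK1, the kinase that holds pyruvate out of the mitochondrial cycle, went the other way with 1.99 (SE 0.35, edgeR adjusted p = 0.00051). HK3, a hexokinase of myeloid cells, moved in opposite directions and was at least 1.5-fold lower in AML3 OTX015 than in AML3 DMSO (edgeR adjusted p of the interaction 0.0063). PFKL had one of -1.05 (SE 0.30, edgeR adjusted p = 0.0271), lost without any of 6 libraries at 0.0524 to 0.0975. Lysosome genes passed below 0 for 5 of 34 (14.7%) and above for 1, FUCA1, with a median of -0.50. CTSB, cathepsin B, had an interaction of -2.70 (SE 0.43, edgeR adjusted p = 0.000152), CTSH one of -3.61 (SE 0.73, edgeR adjusted p = 0.00161) and PSAP, prosaposin, one of -1.47 (SE 0.35, edgeR adjusted p = 0.00811).

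Cholesterol synthesis genes passed below 0 for 2 of 23 and above for 2 (8.70% each), with a median of -0.21, which became 0.02 with genes at the floor and 0.13 with library totals alone. OTX015 lowered 17 in each line. INSIG1, which holds the sterol sensor in the endoplasmic reticulum, had an interaction of -1.70 (SE 0.40, edgeR adjusted p = 0.00717). ACAT2 had one of -1.68 (SE 0.52, edgeR adjusted p = 0.0431) and IDI1 one of 1.11 (SE 0.32, edgeR adjusted p = 0.0327), and each was lost without any of 8 libraries, at 0.0593 to 0.150 for ACAT2 and 0.0519 to 0.0884 for IDI1. Integrated stress response and amino acid genes passed below 0 for 2 of 31 and above for 2 (6.45% each), with a median of -0.29. ATF5, a transcription factor of that response, had 44.8, 51.5 and 40.9 CPM in the AML3 OTX015 libraries, against 11.1, 8.65 and 8.51 CPM in AML3 DMSO, and 132, 98.7 and 107 CPM in the AML2 OTX015 libraries, against 75.8, 97.6 and 102 CPM in AML2 DMSO, an interaction of 1.94 (SE 0.34, edgeR adjusted p = 0.000458). SHMT2 had one of -1.33 (SE 0.39, edgeR adjusted p = 0.0336), MTHFD2 one of -1.27 (SE 0.36, edgeR adjusted p = 0.0297) and EPRS one of 0.94 (SE 0.30, edgeR adjusted p = 0.0492). These were lost without any of 7, 8 and 11 libraries, at 0.0606 to 0.104, 0.0503 to 0.0931 and 0.0620 to 0.196.

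**Figure D4:**
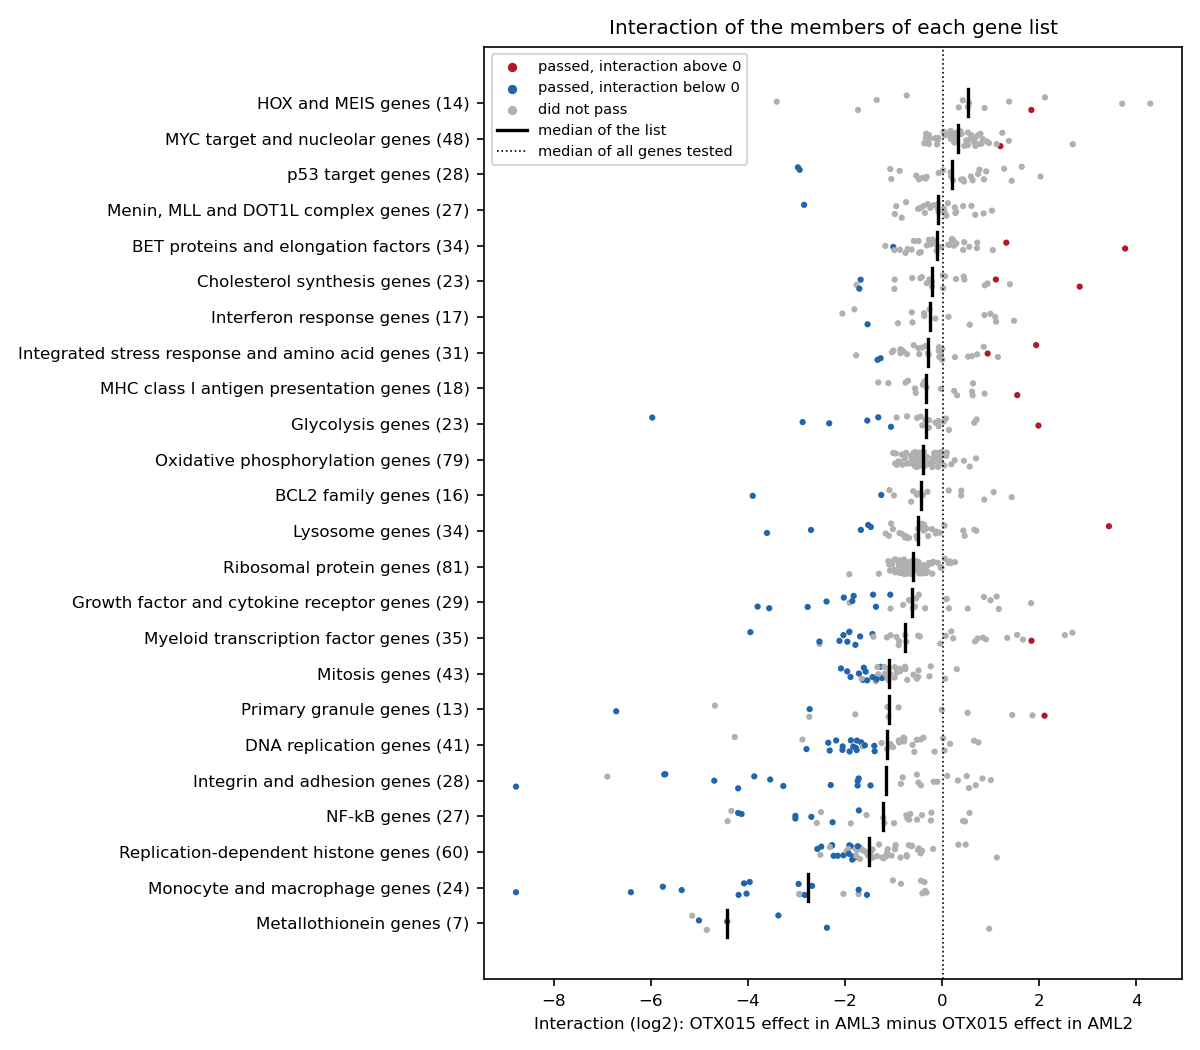
Each point is the interaction (log2, OTX015 effect in AML3 minus that in AML2) of 1 member of a gene list, for lists of 7 or more tested members, with the number tested beside its name. The black bar is the list's median and the dotted line the median of all genes; 14 of 24 monocyte and macrophage genes and 16 of 41 DNA replication genes passed below 0 (blue), and none of 81 ribosomal protein genes passed.

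The other lists held at most 3 genes each that passed. HOX and MEIS genes passed above 0 for 1 of 14 (HOXA3) and below for 0, with a median of 0.54. Of the 14, 7 had fewer than 3 tags in at least 1 of the 4 groups. HOXA3 had 162, 133 and 177 CPM in the AML3 OTX015 libraries, against 4.69, 3.46 and 11.3 CPM in AML3 DMSO, and 179, 137 and 158 CPM in the AML2 OTX015 libraries, against 17.7, 29.3 and 12.8 CPM in AML2 DMSO, an interaction of 1.84 (SE 0.47, edgeR adjusted p = 0.0117), lost without AML3 DMSO replicate 1 (0.0783), AML3 DMSO replicate 2 (0.0678) or AML2 DMSO replicate 2 (0.105). MYC target and nucleolar genes passed above 0 for 1 of 48 (GNL3, 1.20 (SE 0.33, edgeR adjusted p = 0.0243)) and below for 0, with a median of 0.34. OTX015 lowered 36 of them in AML3 and 40 in AML2. GNL3 was lost without any of 7 libraries, at 0.0551 to 0.101. BET proteins and elongation factors passed above 0 for 2 of 34 and below for 1 (BRD3), with a median of -0.11, or 0.17 with library totals alone. MLLT3, of the super elongation complex, had 12.01, 14.2 and 10.8 CPM in the AML3 OTX015 libraries, against 1.17, 0 and 4.25 CPM in AML3 DMSO, and 5.84, 3.87 and 4.21 CPM in the AML2 OTX015 libraries, against 5.9, 10.8 and 5.11 CPM in AML2 DMSO, an interaction of 3.77 (SE 0.84, edgeR adjusted p = 0.00357). EAF2 had one of 1.32 (SE 0.33, edgeR adjusted p = 0.0111), and an adjusted p of 0.0576 without AML2 OTX015 replicate 1. BCL2 family genes passed below 0 for 2 of 16, with a median of -0.44. BCL2A1, an anti-apoptotic member, had 3.28, 4.38 and 0 CPM in the AML3 OTX015 libraries, against 5.86, 7.79 and 2.84 CPM in AML3 DMSO, and 39.7, 61.9 and 77.9 CPM in the AML2 OTX015 libraries, against 5.9, 2.17 and 19.2 CPM in AML2 DMSO, an interaction of -3.90 (SE 0.91, edgeR adjusted p = 0.00601). BNIP3L had one of -1.25 (SE 0.34, edgeR adjusted p = 0.0227), lost without any of 4 libraries at 0.0510 to 0.0976.

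The p53 target genes passed below 0 for 2 of 28, with a median of 0.21. OTX015 raised 18 of them in AML3 and 17 in AML2. TP53I3 had an interaction of -2.97 (SE 0.64, edgeR adjusted p = 0.00281), and BTG2, an antiproliferative factor, one of -2.93 (SE 0.79, edgeR adjusted p = 0.0198), at 0.0959 without AML3 DMSO replicate 1 and 0.0548 without AML2 DMSO replicate 1. Interferon response genes passed below 0 for 1 of 17 (IFI6, -1.53 (SE 0.38, edgeR adjusted p = 0.0117)), with a median of -0.25, or 0.06 with library totals alone. The IFI6 call was lost with library totals alone (0.0657), where 0 members passed, and with replicates 1 and 2 alone (0.0529). MHC class I antigen presentation genes passed above 0 for 1 of 18 (TAP2, 1.55 (SE 0.47, edgeR adjusted p = 0.0396), lost without any of 9 libraries at 0.0556 to 0.169), with a median of -0.34. MHC class II genes passed below 0 for 1 of 3, with a median of -0.05, or 2.27 with genes at the floor and 1.298 with DESeq2. The member was CD74, the invariant chain, with an interaction of -1.91 (SE 0.46, edgeR adjusted p = 0.00808). Menin, MLL and DOT1L complex genes, a list that also held a Polycomb gene, passed below 0 for 1 of 27, with a median of -0.08, or 0.23 with library totals alone. It was that Polycomb gene, BMI1, with an interaction of -2.84 (SE 0.73, edgeR adjusted p = 0.0126) and an adjusted p of 0.0604 without AML3 DMSO replicate 2. No other member of the list passed. Erythroid and megakaryocyte genes passed below 0 for 1 of 5, with a median of -0.76. GP1BB, a platelet glycoprotein, moved in opposite directions and was 15.1-fold (95% counting interval 3.96 to 128) lower in AML3 with OTX015 (edgeR adjusted p of the interaction 0.000408). None of 3 T and B cell genes passed with edgeR or DESeq2, 1 was below 0 at an unadjusted p under 0.05, and the median was -0.91.

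None of 81 ribosomal protein genes and none of 79 oxidative phosphorylation genes passed with edgeR or DESeq2, and at an unadjusted p under 0.05 there were 2 below 0 in each list. Their median interactions were -0.60 and -0.39, or -0.36 and -0.14 with library totals alone. OTX015 lowered 57 ribosomal protein genes in AML3 and 12 in AML2, and lowered 68 oxidative phosphorylation genes in AML3 and 45 in AML2.

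Genes often followed in BET inhibitor studies were set apart to be read whatever their result. HEXIM1, the inhibitor of the elongation factor P-TEFb, rose in both lines, with an effect of 4.69 (SE 0.52) in AML3 and 4.25 (SE 0.51) in AML2. It had 283, 269 and 678 CPM in the AML3 OTX015 libraries, against 18.8, 8.65 and 19.9 CPM in AML3 DMSO, and 205, 230.2 and 526 CPM in the AML2 OTX015 libraries, against 15.2, 10.8 and 26.8 CPM in AML2 DMSO, an interaction of 0.44 (SE 0.71, edgeR adjusted p = 0.774). SERPINI1, neuroserpin, averaged 26.1 ± 0.236 CPM in AML3 OTX015, against 0.772 ± 0.88 in AML3 DMSO, and 26.5 ± 7.52 in AML2 OTX015, against 1.77 ± 2.19 in AML2 DMSO (SD, n = 3 each), an interaction of 1.05 (SE 0.99, edgeR adjusted p = 0.539). BCL2, the anti-apoptotic protein, fell in both lines, with an interaction of -0.52 (SE 0.43, edgeR adjusted p = 0.518). MYB had an interaction of -0.46 (SE 0.41, edgeR adjusted p = 0.553) and CDK6 one of 1.45 (SE 0.66, edgeR adjusted p = 0.189), which was 1.12 with an adjusted p of 0.0123 with replicates 1 and 2 alone. Of the BET genes analysed here, BRD2 rose in both lines, with an interaction of 0.15 (SE 0.45, edgeR adjusted p = 0.898), and BRD3 had 53.5, 46.00 and 25.8 CPM in the AML3 OTX015 libraries, against 45.7, 48.5 and 53.9 CPM in AML3 DMSO, and 86.4, 87.1 and 71.6 CPM in the AML2 OTX015 libraries, against 48.03, 48.8 and 39.6 CPM in AML2 DMSO, an interaction of -1.005 (SE 0.31, edgeR adjusted p = 0.046). The BRD3 call was lost without any of 10 of the 12 libraries, at an adjusted p of 0.0709 to 0.110.

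HOXA9 and MEIS1, the homeobox genes characteristic of mutant NPM1 leukaemia, rose with OTX015 in both lines. HOXA9 had 446, 391 and 271 CPM in the AML3 OTX015 libraries, against 69.2, 95.2 and 65.2 CPM in AML3 DMSO, and 375, 306 and 278 CPM in the AML2 OTX015 libraries, against 126, 131 and 106 CPM in AML2 DMSO, an interaction of 0.88 (SE 0.37, edgeR adjusted p = 0.155). It passed with library totals alone (1.15, adjusted p = 0.0224) and with replicates 1 and 2 alone (0.91, adjusted p = 0.0163), and 1 of its promoters passed above 0 (1.63, edgeR adjusted p = 0.0124). MEIS1 had 57.9, 47.1 and 45.2 CPM in the AML3 OTX015 libraries, against 19.3, 15.6 and 24.1 CPM in AML3 DMSO, and 118, 104 and 105 CPM in the AML2 OTX015 libraries, against 21.9, 30.4 and 20.4 CPM in AML2 DMSO, an interaction of -0.73 (SE 0.33, edgeR adjusted p = 0.183). NPM1 itself fell in both lines, with an effect of -1.42 (SE 0.37) in AML3 and -1.46 (SE 0.37) in AML2, and its interaction was 0.04 (SE 0.51, edgeR adjusted p = 0.996). NPM3, a relative of NPM1, had an interaction of 1.38 (SE 0.46, edgeR adjusted p = 0.064), and it passed with library totals alone, with DESeq2, with replicates 1 and 2 alone and without AML3 OTX015 replicate 3, at 1.32 to 1.65 and an adjusted p of 0.0137 to 0.035. PRTN3, the granule protease proteinase 3, had 3.28, 3.29 and 0 CPM in the AML3 OTX015 libraries, against 441, 461 and 66.7 CPM in AML3 DMSO, and 2.34, 0 and 4.21 CPM in the AML2 OTX015 libraries, against 10.1, 9.76 and 3.83 CPM in AML2 DMSO. Its interaction was -4.68 (SE 2.12, edgeR adjusted p = 0.191), against -4.93 with an adjusted p of 0.0262 with DESeq2, and -5.14 with an adjusted p of 0.0249 (edgeR) without AML3 DMSO replicate 3, the lowest of its group. MPO, CD14 and ITGAM were not analysed here.

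The lines' levels with each agent show where the differences stood; since the same libraries make up the interaction, this is a description. With DMSO, AML3 was above AML2 for 1139 of 10031 genes (11.4%) and below for 1169 (11.7%), and with OTX015 above for 1897 (18.9%) and below for 1824 (18.2%; edgeR, adjusted p under 0.05). Of the 93 genes that fell in AML3 and rose in AML2, AML3 was above AML2 for 3 and below for 81 with OTX015, against above for 28 and below for 15 with DMSO. Of the 20 genes of the other direction, AML3 was above AML2 for 16 and below for 0 with OTX015, against above for 0 and below for 8 with DMSO. Of the 200 genes that fell in AML3 alone, AML3 was below AML2 for 167 with OTX015, against 25 with DMSO. Of the 157 that rose in AML3 alone, AML3 was above AML2 for 124 with OTX015, against 7 with DMSO.

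At promoters, that is, the clusters of start sites in the second count table, 810 of 12867 passed for the interaction (6.3%), 275 above 0 (2.14%) and 535 below (4.16%). OTX015 lowered 90 promoters in AML3 and raised them in AML2 (0.699%), and 17 did the reverse (0.132%). Promoters carry coordinates (nearly all of build hg19) and no gene names, so each was tied to a gene where its tags, alone or summed with neighbours on its strand, equalled the gene's in all 18 libraries, for genes of at least 50 tags; this tied 28092 promoters to 10396 genes. Of the 767 genes that passed, 667 had a tied promoter among those tested, 523 had one that passed in the same direction and 0 had one that passed in the other. A tied promoter's tags are part or all of its gene's tags, so this agreement is largely built in. For 3035 of the 10396 tied genes a single promoter held them all. In the reverse view, 671 of the 810 promoters were tied, and 99 of them belonged to a gene that did not pass. Promoters of ITGAX, GPR84, CYBB, HVCN1 and CYTIP were among those that fell in AML3 and rose in AML2, and promoters of SNHG19, HSD17B7P2 and MCCC2 among those that rose in AML3 and fell in AML2. The same tags count towards the results of those genes.

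SEPTIN9, a cytoskeletal GTPase with many alternative first exons, had promoters that passed in opposite directions. Of 1926 genes with several tied promoters, 46 had 2 or more that passed, and SEPTIN9 was the 1 among those 46 in which the directions differed. The gene as a whole did not pass (interaction 0.27, edgeR adjusted p = 0.699). Its promoter at chr17:75315534-75315612 (hg19, + strand) had 31.2, 28.04 and 24.4 CPM in the AML3 OTX015 libraries, against 49.8, 55.7 and 40.1 CPM in AML3 DMSO, and 3.53, 1.95 and 0 CPM in the AML2 OTX015 libraries, against 23.5, 20.8 and 22.2 CPM in AML2 DMSO, an interaction of 2.51 (SE 0.61, edgeR adjusted p = 0.00847). A promoter just downstream, at chr17:75315654-75315688, also passed above 0, with 3.01 (SE 0.76, edgeR adjusted p = 0.0122). The promoter at chr17:75369400-75369477 had 10.03, 3.36 and 37.8 CPM in the AML3 OTX015 libraries, against 9.6, 10.6 and 21.5 CPM in AML3 DMSO, and 22.4, 16.6 and 10.7 CPM in the AML2 OTX015 libraries, against 1.74, 1.12 and 0 CPM in AML2 DMSO, an interaction of -3.73 (SE 0.94, edgeR adjusted p = 0.0105). In AML2 the first promoter fell with OTX015 (-3.30 (SE 0.49)) and the last rose (3.84 (SE 0.74)), while in AML3 the libraries of the last promoter overlapped.

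The genes whose promoters differed most from each other were chosen by the spread of the interactions. Only promoters of at least 10 CPM over the 12 libraries, and with at least 3 tags in each of the 4 groups, were compared for this. ACYP2, an acylphosphatase, had 2 promoters tested. The one at chr2:54198210-54198293 (hg19, + strand) had 39.00, 35.9 and 66.7 CPM in the AML3 OTX015 libraries, against 7.2, 7.95 and 12.9 CPM in AML3 DMSO, and 18.8, 27.3 and 19.2 CPM in the AML2 OTX015 libraries, against 10.4, 11.2 and 7.84 CPM in AML2 DMSO, an interaction of 1.22 (SE 0.47, edgeR adjusted p = 0.123). The one at chr2:54342736-54342786 had 20.1, 23.6 and 20.00 CPM in the AML3 OTX015 libraries, against 12.6, 11.5 and 10.02 CPM in AML3 DMSO, and 11.8, 18.5 and 19.2 CPM in the AML2 OTX015 libraries, against 1.74, 1.68 and 1.31 CPM in AML2 DMSO, an interaction of -2.35 (SE 0.62, edgeR adjusted p = 0.0149). OTX015 raised both promoters in both lines, so the difference lay in the size. CNBP, a nucleic acid-binding protein, had a promoter at chr3:128902670-128902681 (hg19, - strand) with 16.7, 12.3 and 15.6 CPM in the AML3 OTX015 libraries, against 10.8, 5.3 and 10.02 CPM in AML3 DMSO, and 1.18, 0.975 and 4.26 CPM in the AML2 OTX015 libraries, against 16.5, 13.5 and 13.1 CPM in AML2 DMSO, an interaction of 3.71 (SE 0.84, edgeR adjusted p = 0.00452), against -0.46 (SE 0.36, edgeR adjusted p = 0.519) at its strongest promoter, chr3:128902729-128902746. LYST, a regulator of lysosome size, had 2.22 (SE 0.60, edgeR adjusted p = 0.0214) at chr1:236030143-236030165 (hg19, - strand). Its strongest promoter, chr1:236030167-236030214, had a value in the same direction, 1.09 (SE 0.36, edgeR adjusted p = 0.0685), that did not pass. At chr1:236030216-236030241 it was 0.14 (SE 0.33, edgeR adjusted p = 0.879). The lowest LYST value, -1.78 (SE 0.64, edgeR adjusted p = 0.0919) at chr1:236030297-236030335, did not pass. LST1 had 10 promoters tested, and its strongest, at chr6:31553978-31554060 (hg19, + strand), had 4.46, 1.12 and 4.44 CPM in the AML3 OTX015 libraries, against 72.00, 76.9 and 150.4 CPM in AML3 DMSO, and 884, 1103 and 1419 CPM in the AML2 OTX015 libraries, against 252, 213 and 517 CPM in AML2 DMSO, an interaction of -6.71 (SE 0.70, edgeR adjusted p = 4.73e-07). At chr6:31554779-31554804 the LST1 interaction was -2.75 (SE 0.78, edgeR adjusted p = 0.0272).

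**Figure D5:**
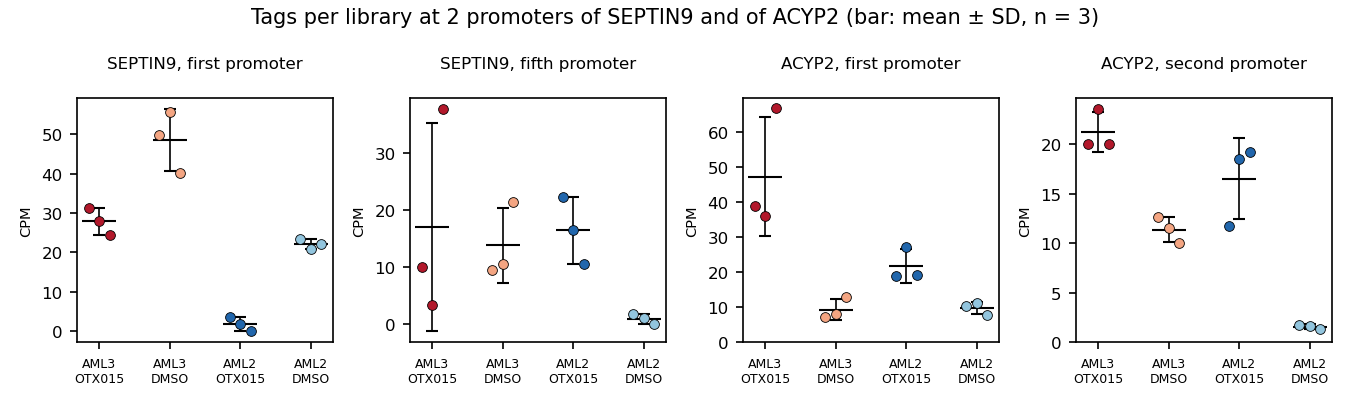
Tags per library (CPM, linear axes) at 2 promoters each of SEPTIN9 and ACYP2, numbered by position among the gene's promoters tested, with 1 point per library and the mean ± SD (n = 3). SEPTIN9's first promoter holds at most 3.53 CPM in AML2 OTX015, against at least 20.8 in AML2 DMSO, while the fifth holds at least 10.7 there, against at most 1.74. ACYP2's second promoter holds at least 11.8 CPM in AML2 OTX015, against at most 1.74 in AML2 DMSO.

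JQ1, a BET inhibitor that shares the thienotriazolodiazepine core of OTX015, was given to both lines too, and its interaction uses the same DMSO libraries. It passed for 696 genes (6.94%), 303 above 0 (3.02%) and 393 below (3.92%). Of the 93 genes that fell in AML3 and rose in AML2 with OTX015, the median JQ1 interaction was -2.30, against -2.57 with OTX015. Of the 20 genes of the other direction it was 1.78, against 2.23 with OTX015. LST1 had a JQ1 interaction of -5.81, SNHG19 of 2.43 and MYC of 1.27, beside -5.75, 2.47 and 1.84 with OTX015. CTSG had one of -6.76 with JQ1, and -6.71 with OTX015. Whether OTX015 and JQ1 differed from each other by line was tested without the DMSO libraries. It passed for 0 of 10031 genes with edgeR, and 218 genes (2.17%) had an unadjusted p under 0.05; for promoters it was 0 of 12867 and 303 (2.35%). With 3 libraries a group and no doses given, this does not show that the compounds act alike.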

How the data were processed

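The authors deposited raw CAGE tag counts per gene symbol and per promoter for 18 libraries, with no normalization; the submitters' processing notes name STAR and hg38. The promoter names carry coordinates, nearly all of hg19, and none were converted. Per the labels' protocols, RNA was extracted with a Qiagen RNeasy kit; the counting program is not given in the sources used here.

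Counts were fitted with edgeR 4.0.16 (R 4.3.3, limma 3.58.1), all 18 libraries, 1 mean per group, 12 residual degrees of freedom, edgeR's expression filter and trimmed-mean scaling, and the quasi-likelihood test. The interaction and each line's OTX015 effect were adjusted by Benjamini-Hochberg over all genes, or all promoters, and called at 0.05, two-sided. Standard errors are the coefficient over the root of the F statistic. They are not given where a group had 0 tags, whose fold is a bound against 3 tags over the group. With 1 to 3 tags the ratio has a 95% counting interval, which covers counting error only. The fit was also run on counts simulated with known interactions from its own estimates, as a check of the code, and that result is not given here. Simulated libraries were drawn independently, so that run cannot speak to effects shared by replicate number. Totals per library ran from 303883 to 2163106 tags.

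Named genes were those with at least 10 CPM over the 12 libraries and the largest interactions of each class, up to 4 passing members of each list by adjusted p, and a set read whatever its result; 1 gene so chosen is not reported here. The members and gene lists were chosen with earlier results of these data known, and members named only for moving in opposite directions were chosen after their values were seen. Alternatives were relative-log scaling, library totals alone, DESeq2 1.42.0, no filter on low counts, 12 libraries without JQ1, a replicate block, replicates 1 and 2 alone, and each of the 12 libraries left out in turn. No 2 libraries were identical.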

Additional observations from a re-analysis of the deposited data

Results flagged for a closer look

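A difference between the lines under the same contrast, by the test of the interaction itself (edgeR), set the following results apart for a second look. Among genes, 285 had a higher OTX015 effect in AML3 than in AML2 and 482 a lower one. Of these, 20 rose in AML3 and fell in AML2, and 93 fell in AML3 and rose in AML2. Among promoters the corresponding numbers were 275 and 535, with 17 and 90 in opposite directions.

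Of the genes read whatever their result, MYC had an interaction of 1.84, S100A8 of -3.96, CTSG of -6.71 and BRD3 of -1.0. MYC fell in both lines and fell further in AML2, CTSG passed as a fall in AML3 alone, and S100A8 and BRD3 passed as rises in AML2 alone. The larger share of tags taken by MALAT1 in AML3 OTX015 (6.32% to 6.75%) than in AML2 OTX015 (2.08% to 3.16%) moves with the same contrast, and its part in these results was not tested.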

How the results depend on the processing

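All 767 genes kept the sign of their interaction in every alternative in which they were tested. Without the JQ1 libraries 9598 genes were tested and 876 passed, 738 of them among the 767. Over the named genes, 2261 results stayed on the same side of the threshold, 178 lost the call and 12 gained it. Where either fit passed, 0 changed sign. Results that passed in neither fit could change sign, as did HEXIM1 (-0.13 to 0.96 over the alternatives) and NPM1 (-0.24 to 0.36). With library totals alone 346 genes passed above 0 and 287 below, 28 and 50 of them opposite; 551 of the 767 calls and 47 of the 113 opposite genes were shared. For promoters it was 320 and 317, with 30 opposite upward in AML3. DESeq2 gave 13 genes opposite upward. Without the filter 7 promoters were opposite upward, and among promoters with at least 10 tags 57 were opposite downward. Replicates 1 and 2 alone gave 492 genes above and 918 below 0, 39 and 140 opposite, and 490 and 1022 promoters, 30 and 156 opposite.

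The main fit did not pair libraries by replicate number. Deviations of same-numbered libraries correlated at -0.07 to 0.23, and not every library matched its own number best. Replicate 3 did so in all pairs of groups but AML2 OTX015 with AML3 DMSO, and the source of that match was not tested. With a replicate block 450 genes and 453 promoters passed above 0, and 1115 genes in all, including all 767.

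Leaving out each library in turn gave 180 to 324 genes above and 367 to 496 below 0, 10 to 29 opposite upward in AML3 and 69 to 88 downward, and 144 to 293 promoters above and 386 to 541 below, 9 to 20 and 72 to 89 opposite. Genes above 0 were 185 without AML2 OTX015 replicate 1 and 180 without AML2 DMSO replicate 2, and genes opposite upward 13 without AML3 DMSO replicate 1 and 10 without AML2 DMSO replicate 2. Promoters above 0 were 175 without AML3 DMSO replicate 2, 177 and 144 without AML2 OTX015 replicates 1 and 2, and 161 without AML2 DMSO replicate 2. Promoters opposite upward were 10 without AML3 DMSO replicate 1 or 2, 11 without AML2 OTX015 replicate 1 or AML2 DMSO replicate 1, and 9 without AML2 DMSO replicate 2. The interferon, MHC class II and menin-complex medians changed sign under at least 1 alternative each. So did those for cholesterol synthesis (0.129 with library totals alone, -0.370 to 0.00558 without 1 library, above 0 without AML2 DMSO replicate 1) and for BET proteins and elongation factors (0.171 with library totals alone, -0.182 to 0.0122 without 1 library, above 0 without AML2 OTX015 replicate 3). Among lists with at least 5 calls, and beside the mitosis, glycolysis and left-out-library counts given above, counts below 0 that moved by over 1.5 times were myeloid transcription factors 17, NF-kB 13, lysosome 8 and histones 41 with replicates 1 and 2 alone, NF-kB 11, lysosome 8 and histones 29 with the block, and histones 29 with DESeq2. Lists with 1 or 2 calls moved too. MYC targets had 4 above 0 with library totals alone, 2 with DESeq2, 3 with the block and 2 with replicates 1 and 2 alone, and HOX genes 2 with library totals alone or replicates 1 and 2 alone. With replicates 1 and 2 alone the stress response list had 6 below 0 and the BCL2 family and p53 targets 4 each. With library totals alone the stress response list had 0, and the BCL2 family, p53 targets and cholesterol synthesis 1 each. Interferon genes had 2 with the block, with replicates 1 and 2 alone, without the filter or without JQ1, the menin complex 2 with the block, cholesterol synthesis 1 with DESeq2 and MHC class I 0 above 0 with DESeq2. Named genes that lost their call were, with library totals alone, SOCS2, CDA, MNDA, KCNN4, ACAT2, IFI6, MT1X, BRD3, BNIP3L, BTG2, MTHFD2, SHMT2 and PFKL (adjusted p 0.0524 to 0.174), and with DESeq2 LANCL1, FGFR1, TRIP6, FKBP7, ACAT2, TAP2 and BRD3 (0.0521 to 0.0877). With replicates 1 and 2 alone they were CDA, MNDA, TRIP6, IFI6 and BRD3 (0.0529 to 0.121), without the filter BRD3 and EPRS (0.0718 and 0.081), and without JQ1 EPRS (0.0742). With the replicate block CDK6 (1.36), NPM3 (1.38) and PRTN3 (-4.76) passed, at an adjusted p of 0.0359, 0.0301 and 0.0181. The cause of these moves was not tested.

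Depth limits the low end. In AML3 OTX015 the smallest library had 303883 tags, genes with fewer than 4 tags in a group have ratios with wide intervals, and RNA of a gene at 0 there was not detectable at this depth.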
